A study of Homo sapiens with 4 samples.

Results

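The ATP-binding cassette (ABC) transporters that carry drugs out of cells were described across 4 human acute myeloid leukemia cell lines, each represented by 1 RNA sequencing library. The set held 10 genes of the 21865 gene symbols in the deposited tables, chosen by name: ABCB1, ABCB4, ABCC1, ABCC2, ABCC3, ABCC4, ABCC5, ABCG2, ABCA3 and MVP. Of these, 7 are called measured because some library held at least 1 RPKM of them (reads per kilobase of gene length, scaled to library depth, so that levels can be compared between genes). ABCC2, ABCC3 and ABCG2 stayed below that level in all 4 libraries. Both monocytic lines, THP-1 and MonoMac-1, have the MLL-AF9 fusion, while HL60 is promyelocytic and KG1a immature, without it. The fusion status comes from general knowledge of the lines and is not in the labels. All 4 were cultured in RPMI/Opti-Media with inactivated fetal bovine serum, penicillin and streptomycin, and no other treatment is named. The title of the THP-1 sample ends in "tr", which no label explains. With 1 library per line there was no replicate, and differences of fusion, lineage and single line cannot be told apart.

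ABC transporters are membrane pumps that bind ATP at paired nucleotide-binding domains and use its hydrolysis to move a substrate across a membrane. In myeloid leukemia they are known as a route by which anthracyclines and other cytotoxic drugs leave the cell, and ABCB1, ABCC1 and ABCG2 are the members most studied there. MVP is no transporter: it builds the shell of the vault, a large ribonucleoprotein particle, and was first described as a protein of drug-resistant cells.

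The levels of most members fell into 4 arrangements. ABCB1 was high in KG1a alone, and ABCG2 was highest there at a low level. MVP, with ABCB4 and, at a low level, ABCC3, lay higher in THP-1 and MonoMac-1 than in HL60 and KG1a. ABCC1, ABCC4 and ABCC5 were present in every line, ABCC1 at lower levels in THP-1 and MonoMac-1 than in HL60 and KG1a. ABCA3 was present in all lines except HL60, where it lay below 1 RPKM. ABCC2, below 1 RPKM in every line, was placed in none of these. The summed level of the 10 genes was 46.9 RPKM in THP-1, 54.7 in MonoMac-1 cells, 53.2 in HL60 and 78.4 in KG1a. This sum counts MVP, which is no transporter and made up only 1.39% of it in HL60 and 0.667% in KG1a. MVP was the leading member in THP-1 and MonoMac-1, with 45.6% and 52.5% of that sum, and ABCC1 was the leading member in HL60 and KG1a, with 53.2% and 49.8%.

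**Figure D1:**
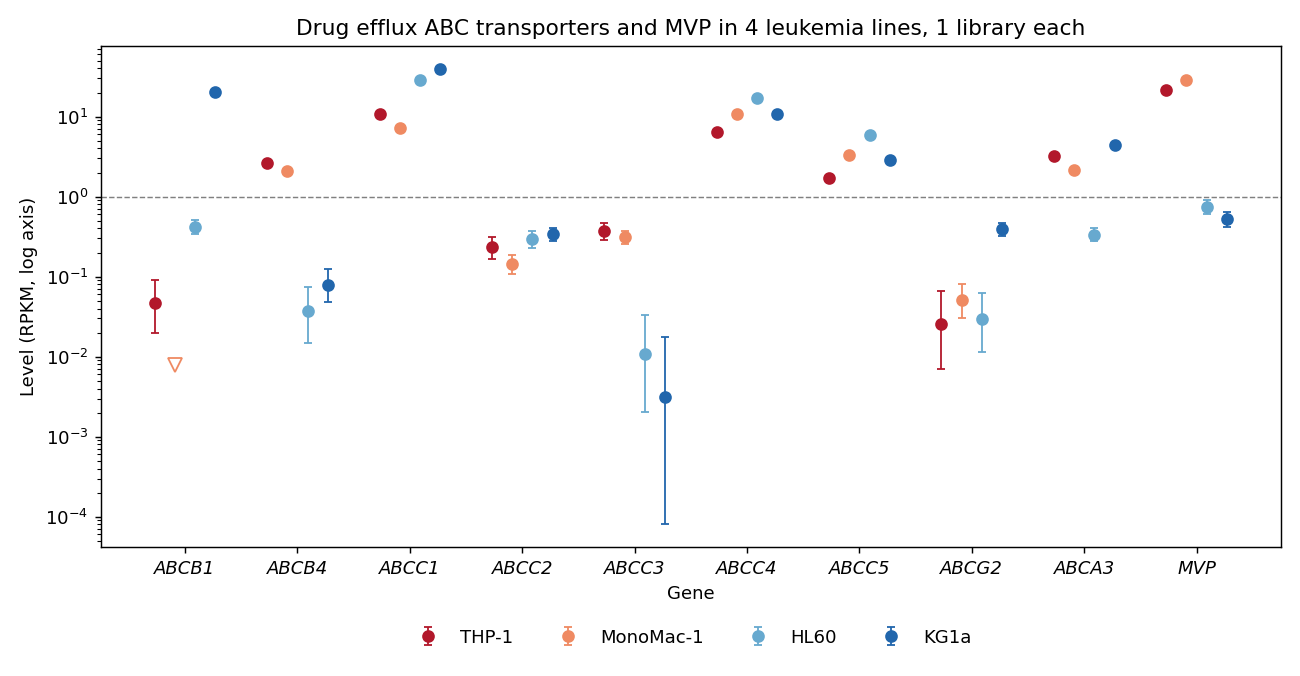
Level of each gene in RPKM (log axis) in 1 library of each line, with 95% counting intervals as bars, the dashed line at 1 RPKM, and an open triangle at the limit of 3 fragments where MonoMac-1 was at 0 for ABCB1. KG1a stands apart for ABCB1 at 20.0 RPKM, THP-1 and MonoMac-1 stand above HL60 and KG1a for MVP, ABCB4 and ABCC3, and the lines lie within 4-fold of each other for ABCC4 and for ABCC5.

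The windows upstream of the transcription starts show what precedes the genes on which the account turns. RefSeq (GRCh38.p14) gave 14 such windows for 7 of the 10 genes, and the 250 bases before each start were read. ABCB1 is shown because both of its annotated starts lie in 1 gene-level value, MVP because it separated the pairs of lines, and ABCC4 because it was present in every line. Capitals mark CCAAT or its reverse complement ATTGG, the only searched motif found in these 4 windows.

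ABCB1 start nearer the coding part, chr7:87600885-87601134, minus strand: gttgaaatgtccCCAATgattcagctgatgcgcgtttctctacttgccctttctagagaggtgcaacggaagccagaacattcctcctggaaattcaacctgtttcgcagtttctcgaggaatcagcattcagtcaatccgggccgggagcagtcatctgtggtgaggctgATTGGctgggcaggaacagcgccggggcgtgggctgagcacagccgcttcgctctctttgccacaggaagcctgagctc
ABCB1 upstream start, chr7:87713296-87713545, minus strand: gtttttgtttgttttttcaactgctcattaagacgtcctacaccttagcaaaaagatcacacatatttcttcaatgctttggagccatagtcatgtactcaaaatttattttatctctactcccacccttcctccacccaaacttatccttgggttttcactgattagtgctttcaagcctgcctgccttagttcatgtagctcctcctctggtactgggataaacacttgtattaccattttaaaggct
MVP first start, chr16:29820144-29820393, plus strand: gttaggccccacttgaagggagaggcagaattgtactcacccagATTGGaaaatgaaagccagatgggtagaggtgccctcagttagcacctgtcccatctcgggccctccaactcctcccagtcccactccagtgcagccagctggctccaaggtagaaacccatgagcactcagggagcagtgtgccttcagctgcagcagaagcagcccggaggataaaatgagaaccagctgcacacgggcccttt
ABCC4 start, chr13:95301452-95301701, minus strand: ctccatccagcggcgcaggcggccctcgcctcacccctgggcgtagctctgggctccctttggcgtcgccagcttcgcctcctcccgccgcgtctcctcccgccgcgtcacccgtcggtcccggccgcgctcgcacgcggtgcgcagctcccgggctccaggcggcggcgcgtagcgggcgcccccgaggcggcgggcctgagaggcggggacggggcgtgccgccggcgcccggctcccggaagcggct

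The ABCB1 starts lie 112 kb apart, and their windows differed in composition: the one nearer the coding part had 55.6% G and C, 12 CG pairs and 2 matches to CCAAT on either strand, against 39.2%, 1 CG pair and 0 matches in the upstream one. The ABCC4 window held 80.4% G and C and 42 CG pairs, and the window of the first MVP start 56.8% and 3. Windows of later MVP starts, not printed, had 61.6% and 61.2% G and C. Each of these had 4 CG pairs and 0 matches to CCAAT. Across all 35116 windows of the table the median was 58.0% G and C. A CCAAT match on either strand was held by 32.0% of them, the GC box GGGCGG by 42.6% and TATAAA by 10.7%. These matches describe the letters only. The RPKM of ABCB1 covers the whole gene and does not say which start was used. Nor does the RPKM of MVP, whose first start was not matched to the deposited hg19 span.

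ABCB1 encodes P-glycoprotein, the broad-specificity pump of the plasma membrane that exports anthracyclines, vinca alkaloids and taxanes. It stood at 20.0 RPKM in KG1a (95% counting interval 19.5 to 20.5), against 0.0464 in THP-1 (0.0199 to 0.0920), 0 in MonoMac-1 and 0.419 in HL60 (0.341 to 0.509). KG1a was far above the other lines, which were all below 1 RPKM, and no intervals overlapped. The KG1a level was 47.8 times that in HL60 (39.4 to 59.1) and 431 times that in THP-1 (215 to 982), where the value rested on 7.87 fragments. No base was counted in MonoMac-1. Against the limit of 3 fragments in that library, 0.00783 RPKM, the level in KG1a was at least 2557-fold higher. These intervals and the limit cover counting error only and take 200 sequenced bases as 1 fragment. That reading is least certain in MonoMac-1, where 8.004% of low coverage values were multiples of 100, against 36.3% to 40.2% in the other libraries.

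The HL60 value of ABCB1 was 2.09% of the KG1a value. Among 30 genes of at least 30 RPKM in KG1a and under 0.3% of that level in THP-1 and MonoMac-1, the HL60 level had a median of 2.67% of KG1a (quartiles 2.57% and 3.08%, range 2.29% to 113%). The ABCB1 value lay below that range, and after removal of the median share it was 0. The source of this share was not tested. The lowest 2 places in the order of lines then went to HL60 and MonoMac-1, both at 0. By contrast the HL60 values of ABCC1 (72.6% of KG1a), ABCC4 (160%) and ABCC5 (202%) lay far above the median share.

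Of 7 measured members 1, ABCB1, was at least 4-fold higher in KG1a than in each other line on the scale of log2(RPKM + 1), as were 2.82% of all 12976 measured genes. It was called by this rule with HL60 left out as well. No measured member met the rule in any other single line or direction. The shares of all genes for being higher were 1.13% in THP-1, 1.06% in MonoMac-1 cells and 0.455% in HL60, and for being lower 0.216% in THP-1, 0.185% in MonoMac-1 cells, 0.57% in HL60 and 2.13% in KG1a. Of 6 measured progenitor markers 3 (CD34, HOPX and ERG) met the same rule in KG1a. CD34 stood at 494 RPKM in KG1a, against 0.0205 in THP-1, 0.253 in MonoMac-1 cells and 12.9 in HL60. CD34 is itself among the 30 genes that define the share of KG1a described above, whose source was not tested. That its HL60 level lay between the quartiles of the share is therefore no separate comparison. The summed level of the 7 progenitor markers was 714 RPKM in KG1a, 13.5 in THP-1, 9.43 in MonoMac-1 cells and 51.7 in HL60, most of the KG1a sum being CD34. KIT, on the same list, went the other way, at 9.06 RPKM in THP-1, against 0.111 in MonoMac-1 cells, 0.514 in HL60 and 0.00634 in KG1a. Of 4 measured T and NK cell markers, CD3D, CD3E and CD7 were at least 4-fold higher in KG1a than in each other line. NKG7 was not, at 122.5 RPKM in KG1a against 159 in MonoMac-1 cells. The unmeasured CD3G, CD2, LCK and GNLY stayed below 1 RPKM, and none of them was highest in KG1a. The list of 8 T and NK markers summed to 169 RPKM in KG1a, 16.2 in THP-1, 160 in MonoMac-1 cells and 22.0 in HL60, most of it NKG7. The part of these markers' cell types in the ABCB1 level was not tested, and in bulk RNA fewer expressing cells and less RNA per cell cannot be told apart.

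Within 500 kb of ABCB1 (hg19 chr7:87132948-87342564) lay 11 other entries, all measured. On the scale of log2(RPKM + 1), RUNDC3B alone was at least 4-fold higher in KG1a than in each other line, at 8.71 RPKM against 0.101 in THP-1, 0.0381 in MonoMac-1 cells and 0.325 in HL60. KIAA1324L, which did not meet the rule on that scale, stood at 6.21 RPKM in KG1a, against 1.39 in THP-1, 0.00177 in MonoMac-1 cells and 0.175 in HL60. The deposited span of RUNDC3B overlaps that of ABCB1 by 84835 bases. In GENCODE v29 (GRCh38) the genes lie on opposite strands and share 0 exonic bases. Since strand handling is not given in the sources used here, reads from introns or unannotated exons of either gene could count toward both. Of the 4 entries on the far side of RUNDC3B, SLC25A40, DBF4 and SRI lay between 9.85 RPKM (DBF4 in THP-1) and 27.3 (SRI in KG1a). ADAM22, between DBF4 and SRI, stood at 3.74 RPKM in KG1a, against 0.832 in THP-1, 0.792 in MonoMac-1 cells and 1.18 in HL60.

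**Figure D2:**
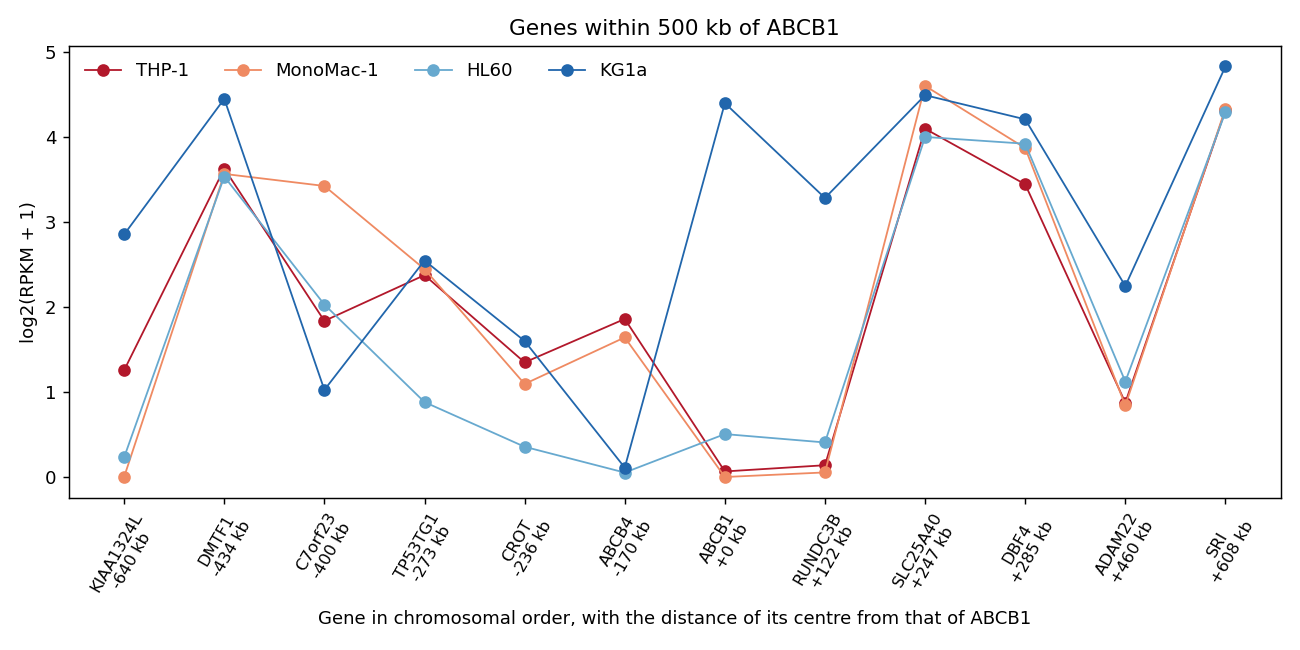
log2(RPKM + 1) of ABCB1 and the 11 entries within 500 kb of its span, in chromosomal order with the distance between gene centres in kb, 1 line of points for each library. KG1a is far above the other lines at ABCB1 and RUNDC3B, while THP-1 and MonoMac-1 are above HL60 and KG1a at the adjacent ABCB4.

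ABCB4 (hg19 chr7:87031361-87105019), whose protein moves phosphatidylcholine across the canalicular membrane of liver cells into bile, lies 27.9 kb from ABCB1 and is its close relative. ABCB4 stood at 2.62 RPKM in THP-1 cells (2.36 to 2.91) and 2.12 in MonoMac-1 cells (1.96 to 2.29), against 0.0368 in HL60 (0.0150 to 0.0752) and 0.0796 in KG1a (0.0481 to 0.124). The pairs of lines did not overlap. The lowest ratio between the pairs, MonoMac-1 over KG1a, was 26.6 (17.2 to 45.2), and HL60 and KG1a had overlapping intervals. In KG1a, where ABCB1 was high, the ABCB4 level rested on 19.3 fragments.

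MVP (hg19 chr16:29841795-29859360) showed, among the members, the widest separation of THP-1 and MonoMac-1 from HL60 and KG1a on the scale of log2(RPKM + 1). It stood at 21.4 RPKM in THP-1 cells (20.5 to 22.3) and 28.7 in MonoMac-1 cells (28.0 to 29.4), against 0.740 in HL60 (0.603 to 0.898) and 0.523 in KG1a (0.420 to 0.643). The THP-1 level was 28.9 times that in HL60 (23.8 to 35.7), the closest 2 values between the pairs. HL60 and KG1a had overlapping intervals, though their ratio was 1.41 (1.05 to 1.89). On that scale 1 of 7 measured members, MVP, exceeded HL60 and KG1a by at least 4-fold in each MLL-AF9 line, a rule met by 1.39% of all measured genes. With a pseudocount of 0.1 RPKM in place of 1, ABCB4 met it too, so that the count was 2. In the opposite direction 0 members met the rule and 0.331% of all genes did.

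The other proteins of the vault were present in every line. PARP4, the poly(ADP-ribose) polymerase of the particle, stood at 31.7 RPKM in THP-1 cells and 51.1 in MonoMac-1 cells, against 23.8 in HL60 and 27.6 in KG1a. TEP1, a telomerase-associated protein that also binds vault RNA, stood at 7.88 and 5.97 RPKM in THP-1 and MonoMac-1 cells, against 3.41 in HL60 and 7.97 in KG1a. Both were above 1 RPKM in HL60 and KG1a, where MVP was below it. PARP4 was higher in both MLL-AF9 lines by some margin, TEP1 was not, and neither met a 4-fold rule. Of 24 measured entries within 500 kb of MVP, SEZ6L2 alone met the same rule, at 40.2 RPKM in THP-1 cells and 5.38 in MonoMac-1 cells, against 0.0229 in HL60 and 0.0138 in KG1a. Other entries there were higher in both MLL-AF9 lines without meeting that rule. QPRT reached 82.2 RPKM in THP-1 cells, 131 in MonoMac-1 cells, 23.3 in HL60 and 17.6 in KG1a. YPEL3 showed 4.38 and 3.21 RPKM in the MLL-AF9 lines, against 0.224 in HL60 and 0.258 in KG1a. ASPHD1, at 13.7 and 2.38 RPKM against 0.400 and 0.0443, was 4-fold higher in THP-1 than in each other line. CORO1A and HIRIP3 were lower in both. The nearby CDIPT stood at 27.3 and 30.4 RPKM, against 16.7 in HL60 and 31.3 in KG1a. An entry whose span covers MVP, LOC606724, was listed at 0 in all libraries.

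All 9 monocyte markers of the list were measured and higher in both MLL-AF9 lines by some margin, and 4 of them (LYZ, CD68, IRF8 and MPEG1) by the 4-fold rule that MVP met. Of all measured genes, 22.1% were higher by any margin and 1.39% met that rule. For CD163 the margin was slight, with 0.0630 RPKM in THP-1 against 0.0593 in HL60. Only MonoMac-1, at 1.89 RPKM, made CD163 a measured gene. CSF1R was 4-fold higher in THP-1 alone, and CTSS and FCGR1A were 4-fold lower in KG1a, with 11.4 and 8.14 RPKM in HL60. The summed level of the 9 was 1008 RPKM in THP-1 cells and 5300 in MonoMac-1 cells, against 37.3 in HL60 and 4.06 in KG1a. CD14, a defining monocyte antigen, was low even in the monocytic lines, at 1.28 RPKM in THP-1 cells and 4.13 in MonoMac-1 cells, against 0.0787 in HL60 and 0.0756 in KG1a. The part of monocytic lineage in the levels of MVP, ABCB4 and ABCC3 was not tested.

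ABCC3 (hg19 chr17:48712218-48769063), which exports glucuronides and bile salts, followed the arrangement of MVP far below 1 RPKM. It stood at 0.371 RPKM in THP-1 cells (0.287 to 0.472) and 0.310 in MonoMac-1 cells (0.258 to 0.369), against 0.0108 in HL60 (0.00202 to 0.0330) and 0.00317 in KG1a (8.03e-05 to 0.0177). The HL60 and KG1a values rested on 2.75 fragments and 1 fragment. The ratio of MonoMac-1 to HL60 was 28.7, with a counting interval of 8.80 to 129. At these levels the pseudocount of 1 RPKM leaves almost no difference, and ABCC3 entered no call.

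ABCC1, or MRP1, exports glutathione conjugates such as leukotriene C4 and, together with glutathione, anthracyclines and vinca alkaloids. It was the highest member in HL60 and KG1a, and no line lacked it. ABCC1 (hg19 chr16:16043434-16236930) stood at 10.8 RPKM in THP-1 cells (10.4 to 11.3) and 7.18 in MonoMac-1 cells (6.95 to 7.42), against 28.3 in HL60 (27.8 to 28.9) and 39.0 in KG1a (38.4 to 39.7). All 4 intervals were separate, and the pairs of lines did not overlap. The THP-1 level was 38.3% of that in HL60 (36.6% to 40.0%), and the MonoMac-1 level was 18.4% of that in KG1a. The difference passed 2-fold but not 4-fold. The adjacent ABCC6, a hepatic transporter whose loss causes pseudoxanthoma elasticum, was arranged in the opposite way, at 3.78 RPKM in THP-1 cells and 3.52 in MonoMac-1 cells, against 0.0228 in HL60 and 0.0296 in KG1a. ABCC6 has near-identical pseudogene copies, so its value is uncertain.

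ABCC4 and ABCC5, which export cyclic nucleotides and nucleotide analogues, were highest in HL60. ABCC4 (hg19 chr13:95672083-95953687) stood at 6.38 RPKM in THP-1 cells (6.05 to 6.73) and 10.6 in MonoMac-1 cells (10.4 to 10.9), against 17.2 in HL60 (16.7 to 17.7) and 10.7 in KG1a (10.4 to 11.05). KG1a and MonoMac-1 could not be ordered (ratio 1.01, 0.966 to 1.05). ABCC5 (hg19 chr3:183637724-183735727) stood at 1.72 RPKM in THP-1 cells (1.56 to 1.89) and 3.34 in MonoMac-1 cells (3.19 to 3.50), against 5.83 in HL60 (5.58 to 6.09) and 2.89 in KG1a (2.73 to 3.06). THP-1 was the lowest line for both genes. Their highest and lowest lines were 2.69 times apart for ABCC4 and 3.40 times for ABCC5.

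ABCA3 (hg19 chr16:2325879-2390747), a lipid transporter of intracellular vesicles known from the lamellar bodies of lung surfactant cells, was scarce in HL60. It stood at 0.335 RPKM in HL60 (0.275 to 0.404), against 3.25 in THP-1 (3.03 to 3.50), 2.16 in MonoMac-1 (2.04 to 2.29) and 4.37 in KG1a (4.17 to 4.58). The HL60 level was 15.5% of that in MonoMac-1, its nearest neighbour (12.6% to 18.8%). It was 7.66% of the KG1a level, and removal of the share of KG1a described above left 0.218 RPKM. Its deposited span ends 0.176 kb from that of ABCA17P, a pseudogene at 1.18 RPKM in KG1a, against 0.263 in THP-1, 0.0997 in MonoMac-1 cells and 0.0365 in HL60. The exons of the 2 genes share 0 bases in GENCODE v29.

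ABCG2 and ABCC2 were near the limit of detection or low. ABCG2 (hg19 chr4:89011416-89080011), the half-transporter that exports mitoxantrone and topotecan and that marks side population stem cells, stood at 0.392 RPKM in KG1a (0.321 to 0.474), against 0.0260 in THP-1 (0.00707 to 0.0665), 0.0512 in MonoMac-1 (0.0303 to 0.0811) and 0.0298 in HL60 (0.0115 to 0.0630). The KG1a level was 7.66 times that in MonoMac-1 (4.57 to 13.3), and the other 3 lines had overlapping intervals. ABCC2 (hg19 chr10:101542463-101611662), the canalicular exporter of conjugated bilirubin, stood at 0.234 RPKM in THP-1 cells and 0.144 in MonoMac-1 cells, against 0.293 in HL60 and 0.339 in KG1a. Only MonoMac-1 was separate from HL60 and KG1a by its interval (0.109 to 0.187).

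The difference between the lines with the MLL-AF9 fusion and those without it was tested with limma over all 12976 measured genes, with the line as the unit. No gene passed a Benjamini-Hochberg adjusted p of 0.05, in either direction (0% and 0%), and the lowest adjusted p was 0.0724. The unadjusted p was under 0.05 for 767 genes with higher values (5.91%) and 342 with lower ones (2.64%). For MVP the mean difference was 3.99 on the log2 scale (SE 0.43), and limma gave an adjusted p of 0.133. For ABCB4 it was 1.67 (SE 0.48), with a limma adjusted p of 0.472, and the difference was 3.97 with a pseudocount of 0.1 RPKM. For ABCC1 it was -1.80 (SE 0.40), with a limma adjusted p of 0.350. These were the 3 members with an unadjusted p under 0.05.

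The other measured members had larger errors relative to their differences. ABCB1 differed by -2.42 (SE 1.32; limma adjusted p = 0.712), a value that was -4.36 without HL60 and -0.47 without KG1a. ABCC4 differed by -0.65 (SE 0.46), ABCC5 by -0.59 (SE 0.55) and ABCA3 by 0.45 (SE 0.79). Leaving out THP-1, MonoMac-1, HL60 and KG1a in turn gave -0.33, -0.98, -0.34 and -0.97 for ABCC4. For ABCC5 it gave -0.25, -0.92, -0.18 and -0.99, and for ABCA3 0.24, 0.67, -0.55 and 1.46. With a pseudocount of 0.1 the ABCB1 difference was -4.74 and that of ABCA3 0.98. By any margin, 2 of 7 members (MVP and ABCB4) were higher in both MLL-AF9 lines, where 22.1% of all genes were, and 3 (ABCB1, ABCC1 and ABCC4) were lower, where 19.6% were. For ABCB1 this rested on HL60, which was at 0 and below THP-1 after removal of the KG1a share. For ABCC4 it rested on MonoMac-1 and KG1a, whose intervals overlapped. The median difference over the 7 members was -0.59, against 0.02 over all measured genes.

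**Figure D3:**
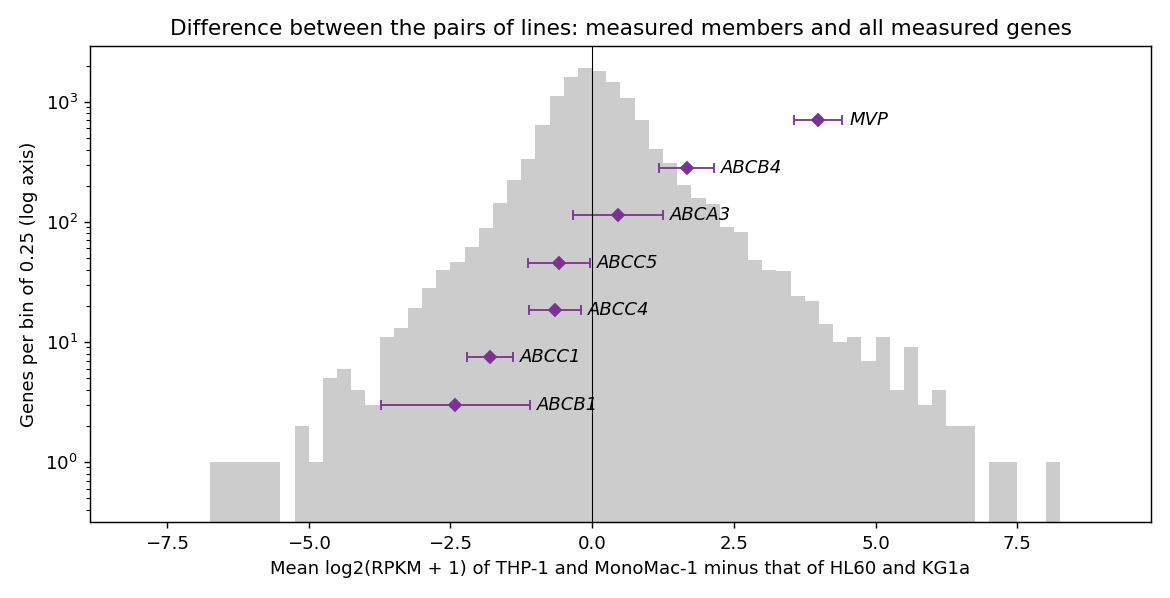
Mean log2(RPKM + 1) of THP-1 and MonoMac-1 minus that of HL60 and KG1a for the 7 measured members (diamonds with limma standard errors as bars, set at arbitrary heights) over the histogram of all 12976 measured genes in bins of 0.25, with the number of genes on a log axis. MVP at 3.99 lies in the upper tail, ABCC1 at -1.80 and ABCB1 at -2.42 lie on the lower side, and ABCC4, ABCC5 and ABCA3 lie within 1 of zero.

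Among 38 other genes of the ABC family, not all of them transporters, 21 were measured. At an adjusted p of 0.05 limma passed 0 of them in either direction, and their median difference was 0.25. By any margin 6 were higher and 2 lower in both MLL-AF9 lines, where 22.1% and 19.6% of all measured genes were. A 4-fold rule was met by 3 of them, each by a different rule. Of all measured genes, 1.39% were 4-fold higher in both MLL-AF9 lines, 1.13% in THP-1 alone and 2.82% in KG1a alone. ABCC6 was higher in both MLL-AF9 lines, as given above. ABCA1, which loads cholesterol onto apolipoprotein A-I, stood at 15.0 RPKM in THP-1, against 0.991 in MonoMac-1 cells, 0.927 in HL60 and 0.447 in KG1a. ABCG1, which exports cholesterol to high-density lipoprotein, stood at 18.02 RPKM in KG1a, against 0.464 in THP-1, 0.00891 in MonoMac-1 cells and 0.584 in HL60, the last 3.24% of KG1a.

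The most abundant of the other ABC genes were not drug pumps. ABCB10, a mitochondrial transporter of erythroid heme synthesis, stood at 37.3 RPKM in THP-1 cells and 91.3 in MonoMac-1 cells, against 37.4 in HL60 and 10.8 in KG1a. ABCE1, a ribosome recycling factor, lay between 25.5 RPKM in KG1a and 66.2 in HL60, and ABCF1, a translation factor, between 20.9 in THP-1 and 53.9 in KG1a. The highest drug efflux member, ABCC1 in KG1a, reached 39.0 RPKM.

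**Figure D4:**
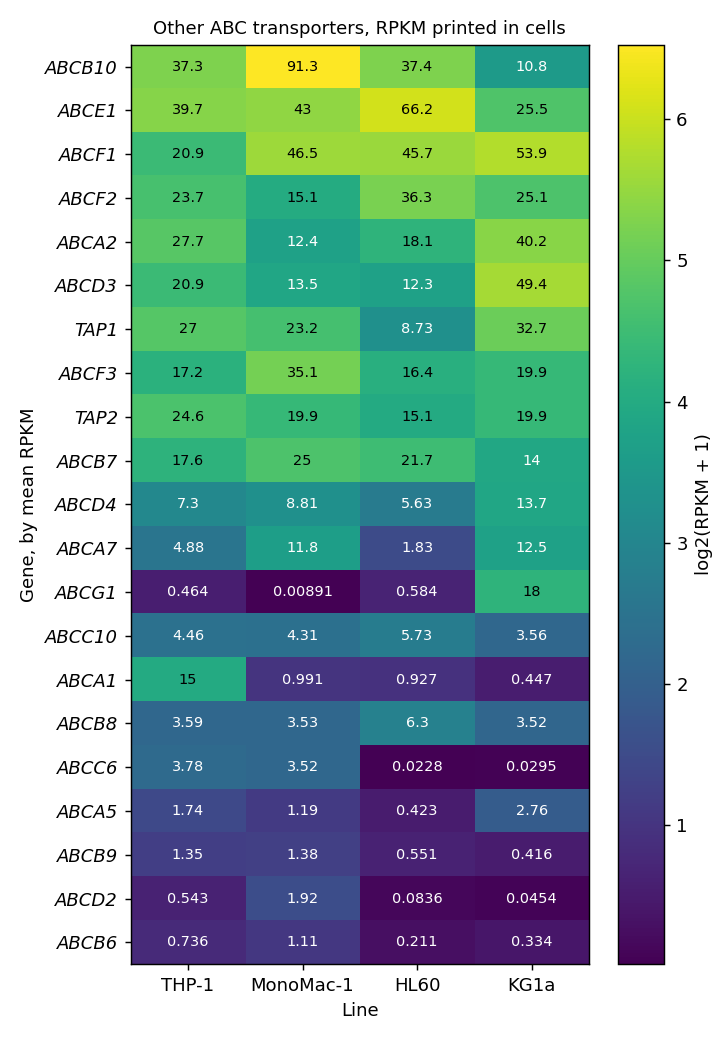
Levels of 21 measured ABC family genes outside the drug efflux set in 1 library of each line, coloured by log2(RPKM + 1) with the RPKM printed in each cell, ordered by mean level. ABCG1 is high in KG1a alone, ABCA1 in THP-1 alone, and ABCC6 in THP-1 and MonoMac-1.

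The list of transcription factors known to act on efflux transporter genes held 19 genes, counting KEAP1, which is itself no transcription factor. Of these, 16 were measured, and limma passed 0 in either direction. The 3 highest were YBX1, a Y-box protein that binds CCAAT sequences, at 2670 RPKM in THP-1 cells and 435 in MonoMac-1 cells, against 738 in HL60 and 656 in KG1a; KEAP1, the cytoplasmic partner of NFE2L2; and RXRA, a nuclear receptor. KEAP1 lay between 31.3 RPKM in HL60 and 57.2 in KG1a, and RXRA between 19.6 in MonoMac-1 and 39.3 in KG1a. PPARG, a nuclear receptor of lipid metabolism, was the only one to meet a 4-fold rule, at 28.0 RPKM in MonoMac-1, against 4.39 in THP-1 and 0.491 in HL60, and listed at 0 in KG1a. NR1I2, the xenobiotic receptor PXR that induces ABCB1 in liver and gut, was listed at 0 in KG1a, against 0.551 RPKM in THP-1, 1.71 in MonoMac-1 cells and 1.34 in HL60. Other measured genes of the list went either way in KG1a. AHR and HIF1A, like KEAP1 and RXRA, were highest there, at 9.89 and 35.4 RPKM. ARNT, NFE2L2, SP1 and ETS1, like PPARG, were lowest there, at 14.2, 15.6, 13.7 and 4.05 RPKM.

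Of 7 other drug, metal and anion transporters outside the ABC family, some of them known mainly for uptake, 5 were measured, and limma passed 0 in either direction. SLCO3A1, an organic anion transporting polypeptide, was the only one to meet a 4-fold rule, at 0.0397 RPKM in KG1a, against 5.56 in THP-1, 10.9 in MonoMac-1 cells and 8.12 in HL60. SLCO4A1, a related anion transporter, stood at 4.69 RPKM in THP-1 cells and 6.83 in MonoMac-1 cells, against 24.5 in HL60 and 19.5 in KG1a. SLCO4C1, another of that family, stood at 0.931 RPKM in THP-1 cells and 1.77 in MonoMac-1 cells, against 3.86 in HL60 and 4.93 in KG1a.

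The genes most like each variable member were found by the Euclidean distance of log2(RPKM + 1) profiles centred on each gene's own mean over the 4 lines, for the 4 measured members that spanned at least 2 on that scale. With 4 points such a likeness is a description. For ABCB1 they were GLYATL2, PTPRM, IGJ, ELN and CALCRL, at distances of 0.06 to 0.14, each between 18.2 and 20.6 RPKM in KG1a and between 0.405 and 0.513 in HL60. Those HL60 values, like that of ABCB1, lay below the median share of KG1a described above. For MVP the closest were HLA-DRB5 (distance 0.11), IL12RB2, C5orf25, FAM127A and TRPM4. For ABCC1 they were SLC43A3 (0.14), ZNF426, ANXA3, VEZT and SPRED1, and for ABCA3 ZNF57 (0.11), C11orf67, ARFGEF1, ZNF429 and LRRC37A4.

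The libraries held 6.04 gigabases on genes for THP-1, 13.6 for MonoMac-1, 8.72 for HL60 and 10.2 for KG1a. Promyelocyte granule enzymes did not mark HL60 alone. MPO stood at 4.78 RPKM in THP-1 cells and 95.2 in MonoMac-1 cells, against 4610 in HL60 and 3.10 in KG1a, and the factor CEBPE was likewise 4-fold higher in HL60 than in each other line. ELANE, AZU1 and CTSG were 4-fold higher in THP-1 and MonoMac-1, and PRTN3 was higher there by a smaller margin. The 6 promyelocyte markers summed to 6498 RPKM in THP-1, 6929 in MonoMac-1 cells, 5774 in HL60 and 24.0 in KG1a. Median-of-ratios scaling moved the libraries by -0.04 (HL60) to 0.06 (MonoMac-1) on the log2 scale and left the order of the lines as given for all 10 genes. The lists of epithelial, hepatic and stromal markers summed to at most 6.68 RPKM (MonoMac-1), of B cell markers to at most 12.4 (HL60) and of erythroid markers to at most 16.8 (THP-1).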

How the data were processed

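Per the labels' protocols, TRIzol extraction of mRNA preceded library preparation by Illumina's own methods. CASAVA 1.8.2 and hg19 are named in the submitters' processing notes; not given in the sources used here: aligner, annotation, strand handling and filters. For each gene the authors deposited an RPKM and a whole-number coverage signal with no stated unit, read from its values as sequenced bases on the gene (commonest low value 200). Dividing it by 200 gave the fragments behind exact Poisson intervals (95%). Ratios carry exact (Clopper-Pearson) intervals. Of 21893 entries, 28 symbols were repeated, and the entry with the highest mean was kept. No read counts were used.

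Values were analysed as log2(RPKM + 1), and measured genes are those that reached 1 RPKM in a library. limma 3.58.1 (R 4.3.3, trend, two-sided) was run on simulated data as a check of the code. The simulated spread of each gene was capped at the median of the real genes, so this check does not cover the more variable genes. SciPy 1.17.1 gave the intervals. The 2 pairs of lines left 2 residual degrees of freedom before moderation, so p-values measure the spread between lines. Promoter windows came from RefSeq and exons from GENCODE v29, used within GRCh38 only. Named genes were all members, list genes that met a 4-fold rule or were the 3 highest of their list, and the 5 most alike. A pair of list genes is not reported here and was left out of the lists' counts. SEZ6L2, CDIPT, RUNDC3B and the other neighbours, CD14 and other markers, ABCA17P and LOC606724 were named after their values were seen. So were NR1I2, AHR, HIF1A, ARNT, NFE2L2, SP1 and ETS1. The members and lists were chosen with earlier results of these data known.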

Additional observations from a re-analysis of the deposited data

How the results depend on the processing

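The count of members at least 4-fold higher in THP-1 and MonoMac-1 (1, MVP) became 2 with ABCB4 at a pseudocount of 0.1 RPKM, at a 2-fold threshold, and with no filter and that pseudocount, the last added after the data were seen. The count of members lower there (0) became 1 at 2-fold (ABCC1). Leaving out a line gave 0 to 1 by the fold rule (ABCB1, without HL60), and for members higher it gave 1 to 1. In the limma fits without a line, the lone line of a pair was assumed to vary like the others. The count lower in HL60 (0) became 1 with ABCA3 at a pseudocount of 0.1 and at 2-fold. Over all genes, limma called 0 genes and 11 when only genes reaching 5 RPKM were fitted, 0 of them members. The ABCA3 difference reversed to -0.55 without HL60. In these cases the cause was not tested. The other 74 values for counts and orders of lines under alternatives, and the other 67 for single members, met these criteria (counts within 1.5 times; same direction and side of the threshold), though sizes moved, for ABCB4 to 3.97 at a pseudocount of 0.1. Removal of the KG1a share from HL60 changed the order of lines for ABCB1 and ABCG2. No paired analysis was possible because each line has 1 library. Depth limits the HL60 and KG1a values of ABCC3 and ABCB4, the THP-1 value of ABCB1 and the ABCG2 values outside KG1a, each on under 20 fragments.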
